A study of Homo sapiens with 11 samples.

Results

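VX-702 was set against its solvent DMSO in the tamoxifen-resistant breast cancer line T47D-TamR, with 1 RNA sequencing library on each side, so the comparison uses 2 of the 11 libraries of the series. The VX-702 library was from cells given 0.5 µM VX-702, and the reference library was from cells given DMSO alone. Another library of the same arm was from cells given DMSO with 0.5 µM tamoxifen. T47D-TamR is a derivative of the estrogen receptor positive line T47D that became resistant through continuous growth in 0.1 µM tamoxifen, and cells of every library were deprived of estrogen for 48 h before treatment. The other T47D-TamR libraries were from cells transfected at 10 nM for 72 h with siNLK type1 or siNLK type2, which are small interfering RNAs against NLK, or with a non-targeting control siRNA (siCtrl), with or without 0.5 µM tamoxifen. The remaining 4 libraries were from the line BT483. The length of the VX-702 treatment is not given in the sources used here, and the labels say that RNA came from individual dishes but not whether these were separate passages. Genes were compared across the whole transcriptome: of 59087 genes counted, 11738 had a mean of at least 5 CPM, a gene's counts scaled to the size of its library, in the VX-702 and DMSO libraries and were described.

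VX-702 was developed to block p38α, the MAP kinase that MAPK14 encodes. In the labels it stands as an NLK-targeting drug, nemo-like kinase (NLK) being a relative of the p38 kinases. The p38 kinases are switched on by the upstream kinases MAP2K3 and MAP2K6 under stress and inflammatory signals. They pass the signal to the kinases MAPKAPK2 and MAPKAPK3, which protect short-lived mRNAs of inflammatory genes from decay, and to the kinases RPS6KA4 and RPS6KA5, which act on chromatin at early response genes. NLK phosphorylates transcription factors of the Wnt, FOXO and Notch pathways. A kinase inhibitor acts on the protein, so the mRNA of its target need not differ.

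The VX-702 library held 25488313 counts and the DMSO library 24884030. With this depth the smallest amount told apart from 0, taken as 3 counts, was 0.118 CPM in the VX-702 library and 0.121 CPM in the DMSO library. The luminal epithelial markers ESR1, GATA3, FOXA1, KRT8, KRT18, KRT19 and CDH1 summed to 8054 CPM with VX-702 and 7210 CPM with DMSO. The 3 basal markers summed to 7.56 CPM with VX-702 and 8.29 CPM with DMSO, and the 3 leukocyte and 3 endothelial markers to at most 0.501 CPM in either library. Of the 5 fibroblast markers only COL1A1 was above 1 CPM, with 68.7 CPM with VX-702 and 61.0 CPM with DMSO, while PDGFRB was at 0 in both.

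Most genes differed little between the libraries. The log2 difference, VX-702 minus DMSO, had a median of 0.05 and an SD of 0.31 over the 11738 genes, and 56.8% of genes were above 0. With VX-702, 137 genes (1.17% of those described) were at least 1.5-fold higher, and 520 genes (4.43%) were at least 1.5-fold lower. At 2-fold these shares were 0.0767% higher, which is 9 genes, and 0.273% lower, which is 32 genes. The genes just inside and just outside the 1.5-fold bound were PLEKHO1 (0.59) and ZNF511 (0.58) on the higher side, and ZNF727 and ZNF613 (both at -0.58 or -0.59) on the lower side. On the deposited log2(TPM + 1) scale the median of all genes lay 0.11 lower than on the CPM scale, and 4.99% of the genes past 1.5-fold were higher, against 20.9% on the CPM scale. With total counts as the scale that share was 9.34%. It was 21.7% in the deposited normalized table and 29.1% with DESeq2 size factors, so scaling moved it in both directions.

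With 1 library a side no test of these differences is possible from the 2 libraries alone, and the 1.5-fold bound is a description. The kind of test that the design allows takes the spread from other libraries and assumes that the lone VX-702 library varies like them. The main fit takes it from all 11 libraries. It gives both lines the same knockdown effect and the same tamoxifen effect, so differences between the lines widen the spread. A fit of the 7 T47D-TamR libraries alone and a fit with separate effects per line lifted this limit. Their outcome was the same as that of the main fit given below. On simulated data the 11-library fit recovered 2% of genes changed 1.5-fold, 20% of those changed 2-fold and 80% of those changed 3-fold. The simulated data had no differences between lines or arms, and every gene had the same relative spread. The shares recovered in the real libraries may therefore be lower. A gene not called may still differ by 1.5-fold, 2-fold or more. In this fit with edgeR's quasi-likelihood F test, 0 of 24023 genes (0%) passed an adjusted p of 0.05, and 1086 genes had an unadjusted p under 0.05. DESeq2 called 3 genes, each with at most 2 counts in the VX-702 and DMSO libraries, and limma on the deposited normalized table called 0. Without a filter on low counts edgeR called 44 genes, 38 of them lower with VX-702, with a median GC content of 38.97%; the prior degrees of freedom were infinite in that fit and 8.985 with the filter. Those 44 included GAGE12J, CENPF, TOP2A and ASPM, which are described below with the values of each library.

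The genes lower with VX-702 were AT-rich and long. Their median transcript GC content was 38.3% (517 genes with an annotated transcript), against 48.8% for genes within 1.5-fold, and their median transcript length was 5569 bases against 3241 bases. The genes higher with VX-702 had a median GC content of 58.0% and a median length of 2815.5 bases. Across 11644 genes the difference followed transcript GC content with a Spearman rho of 0.667, given as a description across genes that share the same 2 libraries. The rho was 0.659 with the GC content of the coding sequence alone (10468 genes), -0.224 with transcript length and 0.173 with the GC content of the promoter (8655 genes).

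The coding stretches below illustrate this composition in a few genes of the 2 sides, picked as examples. They do not stand for all genes of either side. Each is the in-frame stretch of 90 bases within 1 exon that lies nearest the middle of the coding sequence, with G and C in capitals, from GENCODE 29 on GRCh38. PHIP and DST were at least 2-fold lower with VX-702, and the last 3 were 1.68 to 1.79-fold higher.
PHIP, chr6:78982886-78982975, minus strand, exon 23, 28.9% GC: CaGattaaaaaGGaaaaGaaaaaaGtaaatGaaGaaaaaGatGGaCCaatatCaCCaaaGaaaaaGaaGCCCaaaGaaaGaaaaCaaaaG
DST, chr6:56598536-56598625, minus strand, exon 42, 33.3% GC: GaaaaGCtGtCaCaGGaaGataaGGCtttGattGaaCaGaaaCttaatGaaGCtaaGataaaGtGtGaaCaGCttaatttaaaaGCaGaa
TNC, chr9:115064789-115064878, minus strand, exon 11, 57.8% GC: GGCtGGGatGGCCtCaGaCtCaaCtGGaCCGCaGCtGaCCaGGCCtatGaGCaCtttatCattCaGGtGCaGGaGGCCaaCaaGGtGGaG
SULF2, chr20:47676524-47676613, minus strand, exon 10, 55.6% GC: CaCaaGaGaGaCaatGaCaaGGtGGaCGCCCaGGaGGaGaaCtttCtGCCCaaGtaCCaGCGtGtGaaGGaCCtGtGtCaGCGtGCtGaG
COL5A1, chr9:134785007-134785096, plus strand, exon 30, 67.8% GC: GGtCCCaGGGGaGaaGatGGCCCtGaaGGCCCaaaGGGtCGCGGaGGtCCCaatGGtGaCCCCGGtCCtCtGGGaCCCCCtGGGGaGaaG
Runs of A fill much of the PHIP stretch, whereas runs of G and C recur throughout the COL5A1 stretch. Over the whole coding sequence the GC content was 41.8% in PHIP and 41.2% in DST, against 55.3% in TNC, 56.9% in SULF2 and 64.4% in COL5A1.

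Read by class of GC content, the difference fell away steeply at the AT-rich end and was flat at the GC-rich end. The median log2 difference was -0.49 among the 159 genes with 25 to 35% GC, of which 60 were at least 1.5-fold lower and 0 higher. It was -0.35 at 35 to 40% GC, -0.12 at 40 to 45% and 0.07 at 45 to 50%. From 55% GC upward the median stayed at 0.19 in each class. A smooth fit on GC content and transcript length accounted for 46.1% of the variance of the difference between genes. In what remained after that fit the SD was 0.22, and 118 genes (1.01%) were at least 1.5-fold higher and 79 (0.678%) lower, so the lower side shrank far more than the higher side. Differences after this fit are called composition-adjusted below. The adjustment was added after the data had been seen.

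**Figure D1:**
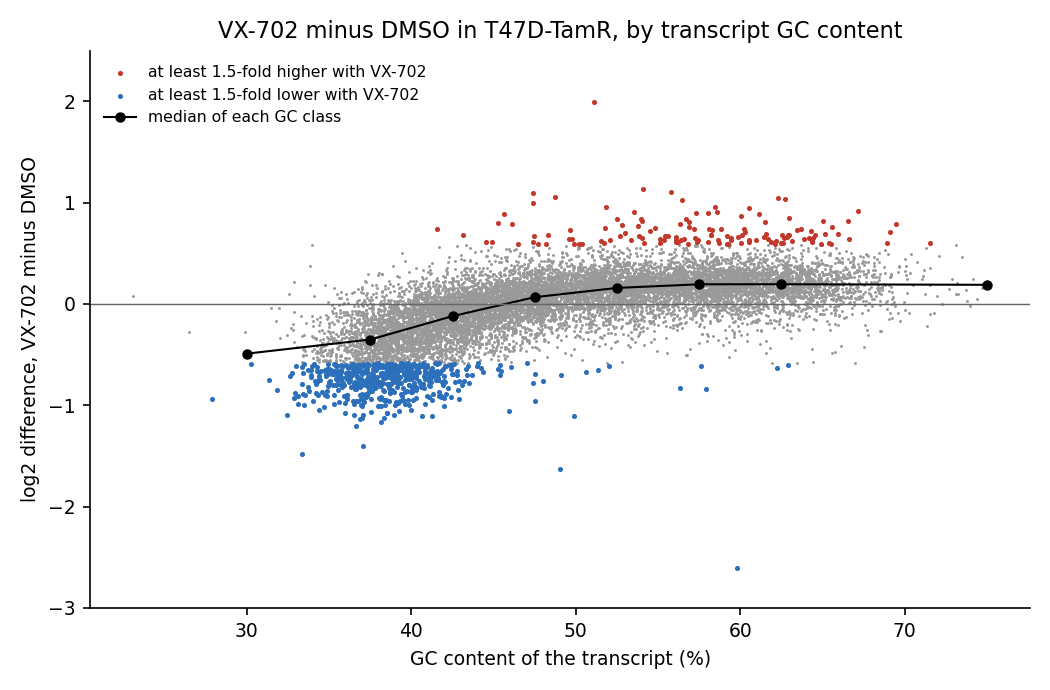
Log2 difference of VX-702 minus DMSO (vertical axis) against the GC content of the gene's transcript in percent (horizontal axis), 1 point per gene, with red and blue points at least 1.5-fold higher and lower with VX-702 and black points at the median of each GC class. The medians climb from -0.49 at the AT-rich end to 0.19 from 55% GC upward; 1 gene, GAGE12J at -6.41, lies below the axis.

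The same gradient was present in the other comparisons within T47D-TamR and nearly absent in BT483. The rho with GC content was 0.570 for siNLK type1 minus siCtrl, 0.535 for siNLK type2 minus siCtrl and 0.735 for siCtrl with tamoxifen minus siCtrl, none of which uses the VX-702 or the DMSO library. It was 0.504 for DMSO with tamoxifen minus DMSO, which does share the DMSO library. In BT483 the corresponding values lay between -0.07 and 0.13. Set against the mean of the 7 T47D-TamR libraries, the 1780 genes under 40% GC had a median log2 level of -0.16 with VX-702, -0.01 with DMSO and tamoxifen, and 0.21 with DMSO. In the siRNA arm the same genes stood at -0.02 with siNLK type1, -0.10 with siNLK type2, -0.21 with siCtrl and tamoxifen, and 0.32 with siCtrl. The libraries highest for AT-rich genes were thus the untreated one of each arm, and VX-702 was the lowest of its arm. Treatment and library are the same thing here, so a response of AT-rich transcripts to treatment and a difference in library preparation cannot be told apart.

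**Figure D2:**
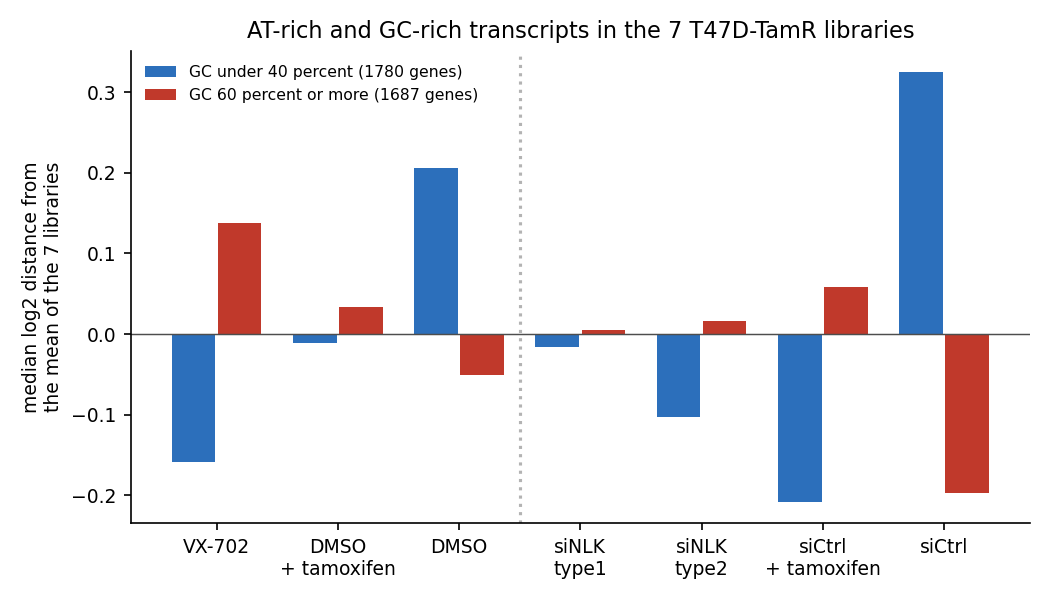
Median log2 distance of AT-rich transcripts (under 40% GC, blue) and GC-rich transcripts (60% GC or more, red) from the mean of the 7 T47D-TamR libraries, with the drug arm left of the dotted line and the siRNA arm right of it; each bar is 1 library. DMSO (0.21) and siCtrl (0.32) stand highest for AT-rich transcripts, and VX-702 stands at -0.16.

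Because the DMSO library stood high for AT-rich genes, the library with DMSO and tamoxifen was used as a second reference, chosen after the data had been seen. Against it, 101 genes (0.860%) were at least 1.5-fold higher with VX-702 and 49 (0.417%) were lower. The gradient with GC content was smaller, at a rho of 0.486. DMSO with tamoxifen, set against DMSO, had 22 genes higher (0.187%) and 205 lower (1.75%). Values with DMSO and tamoxifen are therefore given beside those with DMSO for the genes named by the size of their difference.

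Several of the genes named by size of difference encode extracellular matrix proteins; the grouping by function here and in the next paragraphs was made after the values were seen and carries no test. TNC, which encodes the matrix glycoprotein tenascin C, had 188 CPM with VX-702, 105 CPM with DMSO and 117 CPM with DMSO and tamoxifen. COL5A1, a fibrillar collagen chain, had 383 CPM with VX-702, 229 CPM with DMSO and 240 CPM with DMSO and tamoxifen. HSPG2, the basement membrane proteoglycan perlecan, had 407 CPM with VX-702, 254 CPM with DMSO and 258 CPM with DMSO and tamoxifen. In all 3 genes the VX-702 library was the highest of the 7 T47D-TamR libraries. The siRNA arm ran from 50.6 to 147 CPM for TNC, from 193 to 272 CPM for COL5A1 and from 156.5 to 196.1 CPM for HSPG2. The ratios to DMSO, with exact 95% intervals that cover counting error only, were 1.79 (1.71 to 1.88) for TNC, 1.68 (1.62 to 1.73) for COL5A1 and 1.60 (1.55 to 1.65) for HSPG2.

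SULF2, an extracellular sulfatase that edits heparan sulfate chains, had 68.0 CPM with VX-702, 39.6 CPM with DMSO and 36.9 CPM with DMSO and tamoxifen. TIMP3, an inhibitor of matrix metalloproteinases, had 18.1 CPM with VX-702, 8.65 CPM with DMSO and 10.97 CPM with DMSO and tamoxifen. Both were also higher with VX-702 than in any library of the siRNA arm, where SULF2 reached 44.1 CPM and TIMP3 6.41 CPM. Composition-adjusted differences stayed close to the measured ones: 0.76 for TNC, 0.64 for COL5A1, 0.61 for HSPG2, 0.69 for SULF2 and 1.01 for TIMP3, against 0.84, 0.75, 0.68, 0.78 and 1.06 as measured. Of the mesenchymal and fibroblast list only 3 of 18 genes were measured, with 1 higher (COL5A1), FN1 below 0 and a median of 0.17. Over all genes 1.17% were higher. Under the filter its genes went both ways. COL1A2 had 0 counts with VX-702 and 9 with DMSO, COL3A1 0 and 5, POSTN 1 and 10, and SPARC 1 and 6 in the same order. COL6A1 had 135 counts with VX-702 and 73 with DMSO, TWIST1 33 and 29, and THY1 10 and 5.

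ACTA2 and SYNPO, both among the 12 highest, encode proteins of the actin cytoskeleton. ACTA2, smooth muscle actin, had 65.3 CPM with VX-702, 33.5 CPM with DMSO and 26.6 CPM with DMSO and tamoxifen. Here the siRNA arm lay close to VX-702, from 43.1 CPM in siCtrl to 59.3 CPM in siNLK type1, so the DMSO and the DMSO with tamoxifen libraries were the low ones. SYNPO, which encodes the actin-binding protein synaptopodin, had 15.3 CPM with VX-702, 7.84 CPM with DMSO and 9.32 CPM with DMSO and tamoxifen, and at most 9.79 CPM in the siRNA arm. Its ratio to DMSO was 1.95 (1.64 to 2.34).

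**Figure D3:**
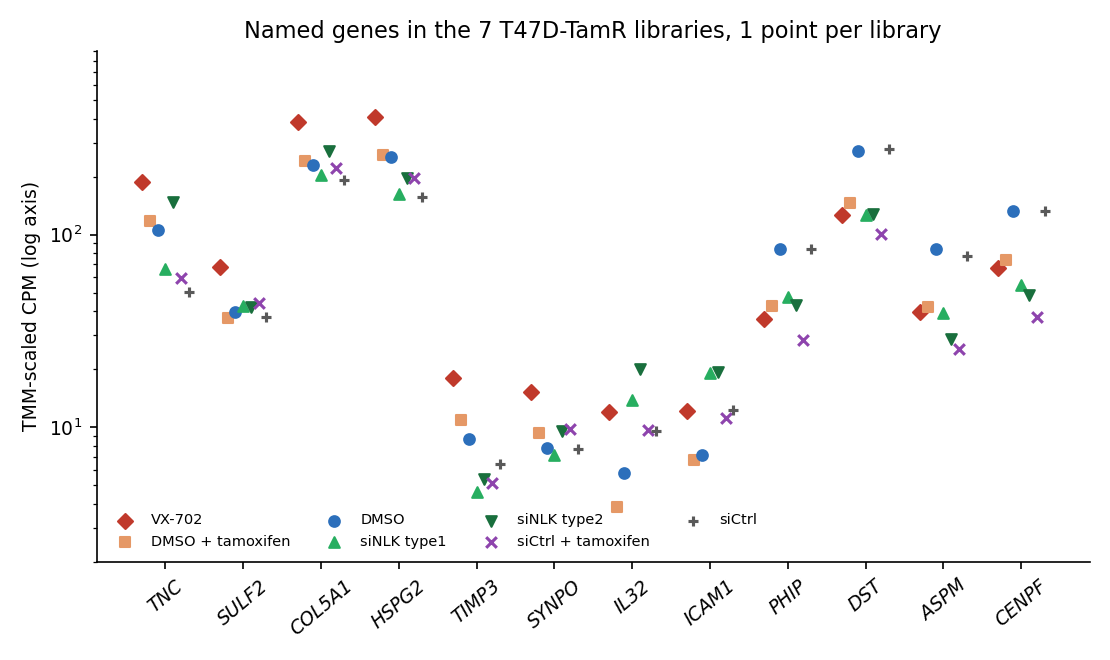
TMM-scaled CPM on a log axis of 12 named genes in the 7 T47D-TamR libraries, 1 point per library. For TNC, SULF2, COL5A1, HSPG2, TIMP3 and SYNPO the VX-702 point (red diamond) is the highest of the 7; for PHIP, DST, ASPM and CENPF the DMSO and siCtrl points stand above all others.

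Over the 7 libraries, 16 genes (0.136% of those described) were at least 1.5-fold above every other T47D-TamR library in VX-702, and 3 (0.0256%) were as far below. The 16 were HSPG2, TNS1, KRT8P33, SYNPO, FSCN1, WNK2, MARVELD1, KCNC1, AP002956.1, RASL10B, IGFBP4, FCHO1, C5AR2, SULF2, TIMP3 and SSX2, picked after their values were seen. SSX2 is among them only when counted apart from its copy SSX2B; their sum, given below, was 1.45 times that in DMSO with tamoxifen. KRT8P33 is a processed pseudogene. The 51 KRT8 genes and pseudogenes together were 1.15 times DMSO and 1.03 times DMSO with tamoxifen, and how reads were split among them is not known. The same count was 72 above and 188 below in siNLK type2, 12 and 41 in siNLK type1, 1 and 12 in siCtrl with tamoxifen, 9 and 4 in siCtrl, 0 and 3 in DMSO with tamoxifen, and 4 and 1 in DMSO. The genes counted had been selected by their mean CPM in the VX-702 and DMSO libraries alone. A gene high only in another library could be left out, so the counts of the libraries cannot be ranked on an equal footing. The 3 genes lowest in VX-702 were KMO, a kynurenine pathway enzyme (6.18 CPM with VX-702, 11.2 CPM with DMSO), the pseudogene HNRNPA3P3 (9.39 CPM with VX-702, 19.6 CPM with DMSO) and the mitochondrial transfer RNA MT-TH (12.4 CPM with VX-702, 21.2 CPM with DMSO). KMO and MT-TH are AT-rich, at 38.85% and 36.23% GC. Their composition-adjusted differences were -0.47 and -0.37, against -0.851 and -0.775 as measured. For HNRNPA3P3, at 45.91% GC, the values were -1.03 and -1.06.

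The largest difference on the lower side was in a gene with near-identical copies, and the largest on the higher side was in a pseudogene. AL133260.1, a processed pseudogene, had 75.9 CPM with VX-702 and 19.0 CPM with DMSO, but 59.3 CPM with DMSO and tamoxifen and 50.4 to 84.1 CPM in the siRNA arm, so DMSO was the library that stood apart. GAGE12J, a cancer testis antigen gene, had 0.626 CPM with VX-702 and 60.3 CPM with DMSO, and 0.575 CPM with DMSO and tamoxifen. In siNLK type1 it had 19.4 CPM. Its coding sequence of 351 bases differs from those of GAGE12F, GAGE12G and GAGE13 by 3 bases each. The 13 GAGE genes together had 135 CPM with VX-702, 157 CPM with DMSO and 112 CPM with DMSO and tamoxifen, a ratio to DMSO of 0.859. These 3 nearest copies each had at most 1.58 CPM in either library, and most of the sum was GAGE2A, with 121 CPM with VX-702 and 84.5 CPM with DMSO. How reads were split among these copies is not known, so the value of GAGE12J alone is uncertain.

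SSX2 and SSX2B, also cancer testis antigen genes, have coding sequences of 669 bases that differ at 0 positions, and their counts are best read together. Their sum was 31.0 CPM with VX-702, 14.99 CPM with DMSO and 21.4 CPM with DMSO and tamoxifen, and 14.8 to 21.7 CPM in the siRNA arm. The sum in VX-702 was thus the highest of the 7 libraries, at 2.07 times DMSO. EEF1DP1, a processed pseudogene of EEF1D, had 1.59 CPM with VX-702, 10.1 CPM with DMSO and 2.84 CPM with DMSO and tamoxifen, while the EEF1D genes together had 472 CPM with VX-702 and 455 CPM with DMSO. AL122020.1, another processed pseudogene, had 9.64 CPM with VX-702, 20.8 CPM with DMSO and 4.33 CPM with DMSO and tamoxifen.

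Other genes among the 12 highest were expressed at low levels. LFNG, a glycosyltransferase that modifies Notch receptors, had 18.1 CPM with VX-702, 8.82 CPM with DMSO and 9.36 CPM with DMSO and tamoxifen. MAPK4, an atypical MAP kinase, had 8.47 CPM with VX-702, 3.90 CPM with DMSO, 4.45 CPM with DMSO and tamoxifen and 7.83 CPM with siNLK type2. PDCD2L had 9.89 CPM with VX-702, 4.47 CPM with DMSO and 4.26 CPM with DMSO and tamoxifen, RASL10B 12.4, 5.97 and 6.98 CPM in the same order, and AP002956.1 7.72, 2.44 and 2.11 CPM. PDCD2L was as high in siNLK type1, at 9.96 CPM, whereas RASL10B was at most 8.18 CPM in any other T47D-TamR library. Among genes with a mean of at least 50 CPM, the 8 highest also held TRIM29, RBM38, HLA-H and AC004151.1. TRIM29 had 281 CPM with VX-702, 181 CPM with DMSO and 203 CPM with DMSO and tamoxifen, RBM38 79.5, 51.5 and 54.8 CPM in the same order, HLA-H 117, 75.4 and 49.7 CPM, and AC004151.1 68.0, 43.8 and 41.8 CPM. HLA-H is a pseudogene of the MHC class I family and shares sequence with the HLA genes.

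The named genes on the lower side were mostly long and AT-rich. DST, which encodes the cytoskeletal linker dystonin, had 127 CPM with VX-702, 273 CPM with DMSO and 146 CPM with DMSO and tamoxifen. PHIP, a bromodomain protein that binds chromatin, had 36.6 CPM with VX-702, 84.3 CPM with DMSO and 42.5 CPM with DMSO and tamoxifen. ATRX, a chromatin remodeller, had 24.7 CPM with VX-702, 54.4 CPM with DMSO and 28.3 CPM with DMSO and tamoxifen. For these 3 genes the VX-702 library lay within the range of the treated libraries, and DMSO and siCtrl, with 277 CPM for DST, 84.3 CPM for PHIP and 49.0 CPM for ATRX, lay above it. Composition-adjusted differences were -0.73 for DST, -0.70 for PHIP and -0.64 for ATRX, against -1.10, -1.20 and -1.14 as measured.

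DYNC2H1, the heavy chain of the ciliary dynein motor, had 16.9 CPM with VX-702, 37.0 CPM with DMSO and 16.3 CPM with DMSO and tamoxifen. MAP9, a microtubule-associated protein, had 8.35 CPM with VX-702, 23.4 CPM with DMSO and 11.97 CPM with DMSO and tamoxifen, and CCDC39, needed for the beat of motile cilia, had 4.01, 10.7 and 5.14 CPM in the same order. The DMSO library was the high one of the drug arm in each, and siCtrl the high one of the siRNA arm. UACA had 6.60 CPM with VX-702, 14.9 CPM with DMSO and 8.97 CPM with DMSO and tamoxifen, and ZMAT1 5.93, 13.1 and 8.44 CPM in the same order. STARD5, a sterol transport protein, was an exception in composition, at 49.1% GC: it had 7.93 CPM with VX-702, 24.8 CPM with DMSO and 9.93 CPM with DMSO and tamoxifen, and 3.19 to 9.96 CPM in the siRNA arm. At a mean of at least 50 CPM the lowest also included SYCP2, a meiotic chromosome axis protein, RB1CC1, an autophagy initiation factor, RANBP2, a nuclear pore protein, and RAB27B, a GTPase of vesicle secretion. SYCP2 had 114 CPM with VX-702, 234 CPM with DMSO and 130.3 CPM with DMSO and tamoxifen, RB1CC1 45.4, 95.5 and 52.0 CPM in the same order, RANBP2 41.5, 81.7 and 42.9 CPM, and RAB27B 36.4, 71.8 and 49.5 CPM.

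The mRNAs of the kinases that the drug is aimed at differed little. MAPK14, which encodes p38α, had 188 CPM with VX-702, 176 CPM with DMSO and 175 CPM with DMSO and tamoxifen, a ratio to DMSO of 1.07 (1.02 to 1.11). On the deposited TPM scale its level was 69.6 TPM with VX-702 and 70.6 TPM with DMSO, so the sign of the difference depended on the scaling. NLK had 28.01 CPM with VX-702, 33.2 CPM with DMSO and 33.2 CPM with DMSO and tamoxifen, a ratio to DMSO of 0.84 (0.76 to 0.93), and its composition-adjusted difference was -0.03. By contrast NLK stood at 10.2 CPM with siNLK type1 and 11.95 CPM with siNLK type2, against 29.6 CPM with siCtrl. Per unit of length, p38δ (MAPK13) was the most abundant of the family, with 92.0 TPM with VX-702 and 82.4 TPM with DMSO, ahead of MAPK14. MAPK11 (p38β) followed with 26.01 TPM with VX-702 and 23.0 TPM with DMSO, then NLK with 14.9 TPM with VX-702 and 19.2 TPM with DMSO, and MAPK12 (p38γ) with 5.57 TPM with VX-702 and 4.91 TPM with DMSO.

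None of the 5 genes of the p38 and NLK family, the 14 measured upstream kinases and adaptors, the 7 measured MAPK phosphatases or the 12 measured transcription factors phosphorylated by NLK was 1.5-fold different. Over all genes 1.17% were higher and 4.43% lower, so a count of 0 in lists this short is near the background. The median difference of the upstream genes was -0.14, with 9 of 14 below 0, and its sign turned after the composition adjustment, to 0.05. TAOK1 had the largest difference of these at -0.56 (123 CPM with VX-702, 180 CPM with DMSO), with a transcript of 39.5% GC, and MAP2K3 was at 0.47 (30.7 CPM with VX-702, 22.2 CPM with DMSO), with 58.8% GC. The phosphatases, which switch MAP kinases off, had a median of 0.20, with DUSP8 at 0.46 and PPM1D at -0.33. Among substrates of NLK the median was 0.17, with TCF7L1, a Wnt pathway repressor, at 0.50 (94.7 CPM with VX-702, 67.0 CPM with DMSO), NOTCH1 at 0.45 and MYB at -0.35.

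Downstream of p38, 1 of 18 measured genes was at least 1.5-fold lower and 0 higher, against 4.43% lower and 1.17% higher over all genes, so the count is near the background. This was RPS6KA5, the kinase MSK1, with 8.68 CPM with VX-702, 15.8 CPM with DMSO and 14.5 CPM with DMSO and tamoxifen, a ratio to DMSO of 0.55 (0.46 to 0.65). Its transcript has 38.3% GC, and its composition-adjusted difference was -0.33. MAPKAPK2, MAPKAPK3 and RPS6KA4, which p38 also activates, were higher by less than 1.5-fold, so these kinases lay on both sides of 0. MAPKAPK2 had 191 CPM with VX-702 and 145 CPM with DMSO, MAPKAPK3 104 CPM with VX-702 and 77.9 CPM with DMSO, and RPS6KA4 109 CPM with VX-702 and 84.1 CPM with DMSO. The median of the list was 0.07, and it turned negative under 3 of the alternatives, among them the deposited TPM values. Of the 17 inflammatory mRNAs with AU-rich elements, 3 were measured, with a median of 0.08 that was below 0 under 2 of the alternatives and 0.30 after the composition adjustment. They were LIF, a cytokine (17.9 CPM with VX-702, 13.3 CPM with DMSO), CCL2, a chemokine (92.1 CPM with VX-702, 87.1 CPM with DMSO), and VEGFA, an angiogenic factor (140.02 CPM with VX-702, 139.4 CPM with DMSO). The other 14 lay under the filter. Among these, TNF had 30 counts with VX-702 and 29 with DMSO, and IL6 had 4 counts in each. CXCL8 and PTGS2 had 0 counts with VX-702 and 0 with DMSO, which allows up to 0.118 CPM with VX-702 and 0.121 CPM with DMSO, so a lower level of these 2 mRNAs was not detectable at this depth.

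Of all the lists described, that of NF-κB and inflammation had the highest median as measured. It was 0.37 over 13 measured genes, against 0.05 over all genes. Of the 13, 12 were above 0, 2 at least 1.5-fold higher and 0 lower, where all genes had 56.8%, 1.17% and 4.43% in the same order. After the composition adjustment the median was 0.31, against 0.06 over all genes, again with 12 of 13 above 0. The mitochondrially encoded list was then also at 0.31 and the AU-rich list at 0.30. The NF-κB list was above 0 in the siRNA arm as well. Its median there was 0.44 with siNLK type1, 0.85 with siNLK type2 and 0.22 with siCtrl and tamoxifen, each against siCtrl. IL32, a proinflammatory cytokine, had 11.9 CPM with VX-702, 5.81 CPM with DMSO and 3.84 CPM with DMSO and tamoxifen. ICAM1, a leukocyte adhesion molecule, had 12.1 CPM with VX-702, 7.15 CPM with DMSO and 6.75 CPM with DMSO and tamoxifen. VX-702 was the highest library of the drug arm in both, but the siRNA arm reached 20.0 CPM for IL32 and 19.3 CPM for ICAM1. IRF1 (0.53), CD83 (0.50), RELB (0.50) and NFKBIA (0.42) followed, and BCL3 was the one measured gene below 0, at -0.09. The list held 17 genes, and those under the filter went both ways. BIRC3 had 92 counts with VX-702 and 127 with DMSO, and TRAF1 12 and 33 in the same order. CCL5 had 71 counts with VX-702 and 40 with DMSO, and CXCL10 4 and 3. Each list was written with earlier results of these data known, and the median was above 0 in every scaling tried.

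The immediate early genes had a median of 0.23, with 16 of 17 above 0 and 0 past 1.5-fold, from JUND at 0.37 to MCL1 at -0.05. After the composition adjustment the median was 0.13. FOS, with 1.75 CPM with VX-702 and 2.60 CPM with DMSO, and EGR1, with 5.01 CPM with VX-702 and 4.79 CPM with DMSO, lay under the filter. The Notch list had a median of 0.35 over 6 genes, with JAG1, a Notch ligand, 1.5-fold higher (35.4 CPM with VX-702, 22.6 CPM with DMSO) and HES1, the classical Notch target, at 0.23. For both lists the shares over all genes were 56.8% above 0, 1.17% at least 1.5-fold higher and 4.43% lower.

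Estrogen-responsive genes were mixed. Of 22 measured, 16 were above 0, 2 were at least 1.5-fold higher and 1 lower, where 56.8% of all genes were above 0, 1.17% higher and 4.43% lower. The median was 0.26, and 0.20 after the composition adjustment. HSPB8, a small heat shock protein, had 41.3 CPM with VX-702, 24.2 CPM with DMSO and 24.1 CPM with DMSO and tamoxifen, and IGFBP4, a binding protein for insulin-like growth factors, had 7.97, 5.24 and 5.18 CPM in the same order. NRIP1, a corepressor of the estrogen receptor, had 27.2 CPM with VX-702, 44.4 CPM with DMSO and 27.3 CPM with DMSO and tamoxifen, and its transcript has 38.8% GC. The classical targets were not informative, because TFF1 had 0 counts in both libraries, GREB1 had 8 counts with VX-702 and 1 with DMSO, and PGR had 11 counts with VX-702 and 19 with DMSO. ESR1 had 21.2 CPM with VX-702 and 22.5 CPM with DMSO, a ratio of 0.94 (0.84 to 1.07), CCND1 had 79.9 CPM with VX-702 and 65.4 CPM with DMSO, and MYC 12.02 CPM with VX-702 and 8.57 CPM with DMSO. The 17 luminal genes had a median of 0.06, which was below 0 under 5 of the alternatives, with 1 gene lower (EHF).

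Mitotic genes held the largest block of lower genes among the lists. Of 31 measured genes of G2/M and mitosis, 7 were at least 1.5-fold lower and 0 higher, against 4.43% lower over all genes. CENPF, a kinetochore protein, had 66.8 CPM with VX-702, 132 CPM with DMSO and 73.7 CPM with DMSO and tamoxifen. TOP2A, the DNA topoisomerase of mitotic chromosomes, had 220 CPM with VX-702, 388 CPM with DMSO and 249 CPM with DMSO and tamoxifen. ASPM, a spindle pole protein, had 39.6 CPM with VX-702, 84.6 CPM with DMSO and 42.0 CPM with DMSO and tamoxifen. In each of these the untreated libraries, DMSO and siCtrl, were the highest of the 7. The other lower genes were CENPE, TTK, HMMR and DLGAP5, and all 7 had transcripts of 35.3 to 40.8% GC. Among all genes described, 19.4% of those with 35 to 40% GC and 4.65% of those with 40 to 45% GC were at least 1.5-fold lower. The share of 4.43% is thus a low background for AT-rich genes.

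The other mitotic genes lay on both sides of 0. The median of the list was -0.10, with 13 of 31 genes above 0, and -0.01 after the composition adjustment, with 15 of 31 above 0. The median GC content of the list was 43.2%. MKI67, the proliferation marker, is less AT-rich at 48.3% GC and stood at -0.52 (155 CPM with VX-702, 222 CPM with DMSO) and at -0.49 after the adjustment. The G1/S and replication list had a median of 0.12, just below 0 on 1 of the alternatives, with CCNE2, a G1/S cyclin with 36.9% GC, the 1 gene of 33 past 1.5-fold (28.1 CPM with VX-702, 49.0 CPM with DMSO). Among all genes 4.43% were at least 1.5-fold lower and 1.17% higher. Whether fewer cells were dividing or each cell held less of these mRNAs cannot be told apart in bulk RNA. Nor can either be told apart from the difference between libraries in AT-rich transcripts described above.

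**Figure D4:**
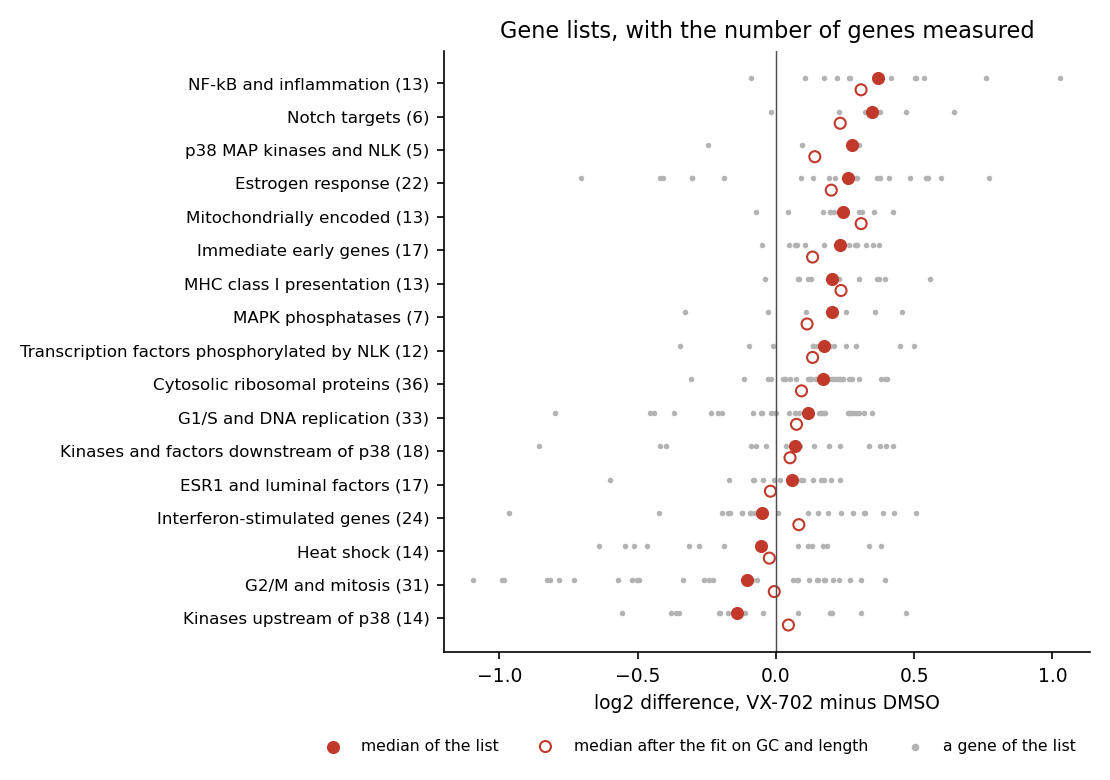
Log2 difference of VX-702 minus DMSO (horizontal axis) for 17 gene lists (rows, with the number of genes measured): grey points are genes, filled circles the list's median and open circles the median after the fit on GC content and length. NF-κB and inflammation has the highest median as measured (0.37, open circle 0.31); the medians of G2/M and mitosis (-0.10) and of the kinases upstream of p38 (-0.14) lie at -0.01 and 0.05 after the fit.

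Among the other lists, mitochondrially encoded genes and chaperones are described for their size. The 13 mitochondrially encoded mRNAs had a median of 0.24, with 12 above 0, and 0.31 after the adjustment with 13 above 0. They and the other mitochondrial genes took 8.61% of all counts with VX-702, 7.79% with DMSO and 8.42% with DMSO and tamoxifen. MT-CO1, a cytochrome oxidase subunit, had 16235 CPM with VX-702, 12712 CPM with DMSO and 14245 CPM with DMSO and tamoxifen. HSP90AA1, the inducible HSP90 chaperone, was lower, with 1074 CPM with VX-702, 1676 CPM with DMSO and 1272 CPM with DMSO and tamoxifen, and its composition-adjusted difference of -0.59 was close to the -0.64 measured. The heat shock list of 14 genes had a median of -0.05 and no other gene past 1.5-fold, where 4.43% of all genes were lower and 1.17% higher.

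The 11 measured long noncoding and nuclear RNAs had a median of 0.02, which was below 0 under 4 of the alternatives, with 6 above 0, 1 at least 1.5-fold lower (NEAT1) and 0 higher. The shares over all genes were 56.8% above 0, 4.43% lower and 1.17% higher. After the composition adjustment the median was 0.09. NEAT1, the scaffold of paraspeckles, had 203 CPM with VX-702, 305 CPM with DMSO and 296 CPM with DMSO and tamoxifen, and 283 to 381 CPM in the siRNA arm, so VX-702 was the lowest of the 7 libraries. MALAT1, a nuclear speckle RNA, had 429 CPM with VX-702, 606 CPM with DMSO and 544 CPM with DMSO and tamoxifen, and siCtrl with tamoxifen was next lowest at 457 CPM. The composition-adjusted differences were -0.36 for NEAT1 and -0.16 for MALAT1. Over all 44 lists with a measured gene the median lay between -0.14 and 0.37, with 38 above 0 and 6 below, where the median of all genes was 0.05.

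The study presents VX-702 beside the knockdown of NLK, and these comparisons share no library with VX-702 minus DMSO. In T47D-TamR, siNLK type1 minus siCtrl had 148 genes at least 1.5-fold higher (1.26%) and 643 lower (5.48%), and siNLK type2 minus siCtrl had 482 higher (4.11%) and 1291 lower (11%), over the same 11738 genes. Across genes the Pearson correlation of VX-702 minus DMSO with siNLK type1 minus siCtrl was 0.60, and 0.34 after the composition adjustment of both; with siNLK type2 it was 0.53, and 0.29 after it. In BT483 the correlations were 0.05 for type1 and 0.10 for type2. All of these are descriptions, since the genes share libraries and composition.

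A comparison with no siRNA against NLK gave a larger value. For siCtrl with tamoxifen minus siCtrl, which had 90 genes higher (0.767%) and 1199 lower (10.2%), it was 0.73 as measured and 0.49 after the adjustment. Of the 520 genes lower with VX-702, 276 (53.1%) were also lower with siNLK type1, where they were 42.9% of its lower genes. With siNLK type2 the shared lower genes were 317, which is 61.0% of those of VX-702 and 24.6% of those of type2, and with siCtrl and tamoxifen 454, which is 87.3% and 37.9%. Of the 137 genes higher with VX-702, 15 (10.95%) were also higher with siNLK type1, against 1.26% of all genes. With siNLK type2 there were 36 (26.3%, against 4.11% of all genes), and with siCtrl and tamoxifen 10 (7.30%, against 0.767%). They made up 10.1%, 7.47% and 11.1% of the higher genes of these 3 comparisons in the same order. The siRNA comparisons all use the siCtrl library, which stood highest for AT-rich genes.

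**Figure D5:**
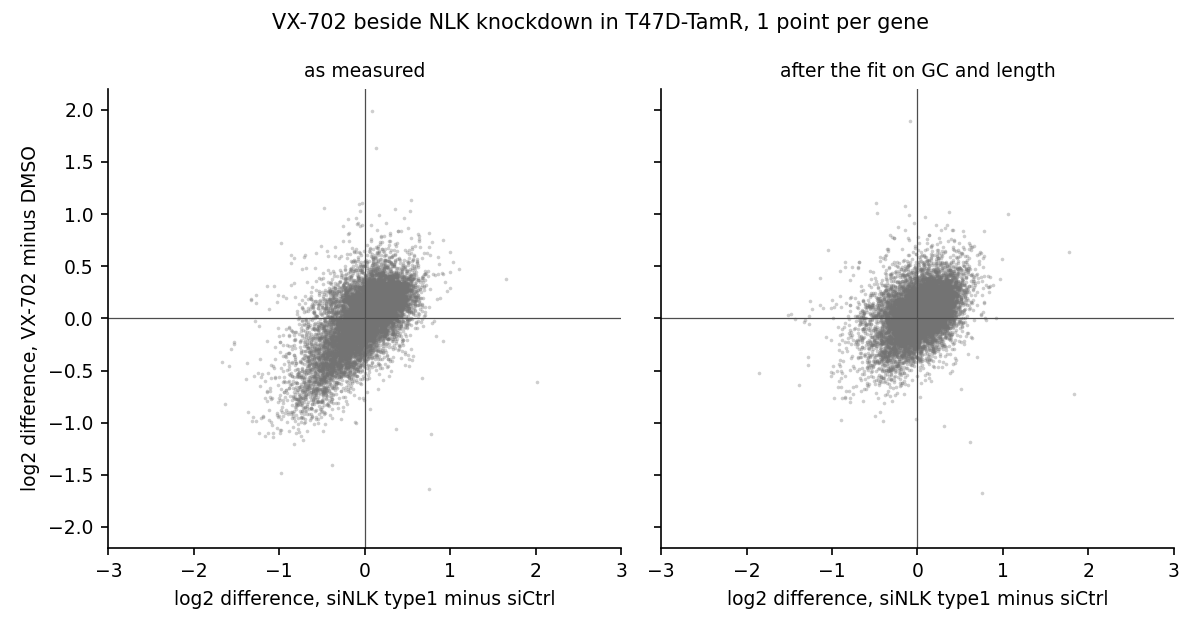
Log2 difference of VX-702 minus DMSO (vertical axis) against siNLK type1 minus siCtrl (horizontal axis) in T47D-TamR, 1 point per gene, as measured (left) and after the fit on GC content and length (right); GAGE12J and EEF1DP1 lie outside the axes. The cloud is stretched toward the lower left in the measured values (Pearson 0.60) and is rounder after the fit (0.34).

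Side by side, NLK stood at -0.25 with VX-702 against DMSO, at -1.53 with siNLK type1 and at -1.30 with siNLK type2, each against siCtrl. IL32 was at 1.03 with VX-702, 0.53 with siNLK type1 and 1.05 with siNLK type2, and ICAM1 at 0.76, 0.63 and 0.64 in the same order. TNC was at 0.84 with VX-702, 0.39 with siNLK type1 and 1.54 with siNLK type2. HSPG2 was at 0.68 with VX-702 but 0.06 and 0.32 with the siRNAs, and TIMP3, at 1.06 with VX-702, was at -0.47 and -0.26 with them. With 1 library per group, none of these differences between treatments was tested.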

How the data were processed

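Stranded mRNA libraries were sequenced, per the labels' protocols. The build was GRCh38, per the submitters' processing notes; aligner and counting settings: not given in the sources used here. Deposited for each library were raw counts by gene from the authors, with the authors' log2(TPM + 1) values and a normalized log2 TPM table of the series. Totals ran from 14637083 to 26915863 counts per library.

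Counts were scaled with edgeR 4.0.16 (R 4.3.3, TMM). Differences are log2 CPM with a prior count of 2. Ratios have exact 95% intervals, conditional on the sum of both counts, that cover counting error only. The fit of all 11 libraries had the arm as block and knockdown, tamoxifen and VX-702 as coefficients (quasi-likelihood F test, filterByExpr, Benjamini-Hochberg); DESeq2 1.42.0 and limma 3.58.1 were alternatives. The programs were tested on simulated data. GC content and length came from the longest protein-coding transcript in GENCODE 29, or the longest transcript where a gene had none; splines had 5 degrees of freedom each. Of 59087 gene names 56378 matched it, by symbol. Columns left unmapped numbered 0. Named genes were the 12 highest and 12 lowest, the 8 highest and 8 lowest at 50 CPM or more, list members with the largest difference, and MAPK14, NLK, ESR1 and other set genes. The comparison, the lists and the named genes were chosen with earlier results of these data known.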

Additional observations from a re-analysis of the deposited data

How the results depend on the processing

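The count of genes at least 1.5-fold higher with VX-702 was 137 and moved to 77 with total counts as the scale, 35 on the deposited log2(TPM + 1) values, 73 in the deposited normalized table, 519 at a mean of at least 1 CPM, 44 at 20 CPM, 3599 with no filter and 9 at 2-fold. The fit on GC content and length and the second reference were chosen after seeing the data. The count lower was 520 and moved to 263 in the normalized table, 79 after the fit on GC content and length, 49 with DMSO and tamoxifen as reference, 989 at 1 CPM, 306 at 20 CPM, 5039 with no filter and 32 at 2-fold. After the fit on GC content and length 59.9% of genes past 1.5-fold were higher, and 67.3% with DMSO and tamoxifen as reference, against 20.9%. The rho with GC content was 0.635 in the normalized table, 0.486 with DMSO and tamoxifen as reference, 0.562 at 1 CPM, 0.705 at 20 CPM and 0.266 with no filter. The fit of all libraries called 0 genes, also with each other library left out in turn (0 to 0), and called 44 with no filter and 3 in DESeq2. With DMSO and tamoxifen as reference SSX2B turned to -0.0504, GAGE12J to 0.11, DYNC2H1 to 0.0561 and AL122020.1 to 1.14; the cause was not tested. Of 352 list medians recomputed under alternatives, 320 stayed within the order-statistic interval of their list's median and 32 moved. For 46 of the named genes, 302 recomputed differences stayed within the gene's counting interval, 106 moved out of it and 4 changed sign. No paired analysis was possible because each group has 1 library and the labels give no replicate numbers. With 1 library a side, the spread between cultures is unknown, and depth limits only genes of a few CPM.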

Other observations

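The ERBB and IGF signalling list had a median of 0.25 over 11 measured genes and 0.28 after the fit on GC content and length, with 9 above 0, 1 at least 1.5-fold higher (IGFBP4) and 0 lower. IGFBP2, a binding protein for insulin-like growth factors, had 253 CPM with VX-702, 181 CPM with DMSO and 190.1 CPM with DMSO and tamoxifen. Of 36 cytosolic ribosomal protein genes, 32 were above 0, with 0 past 1.5-fold and a median of 0.17, which was 0.09 after the fit. The 13 genes of MHC class I presentation had a median of 0.20, with 12 above 0, and 0.24 after the fit. Hypoxia and glycolysis genes had a median of 0.23, with 17 of 18 above 0, and 0.15 after it. For comparison, the median of all genes was 0.05 as measured and 0.06 after the fit. Of all genes 56.8% were above 0, 1.17% were at least 1.5-fold higher and 4.43% lower. Interferon-stimulated genes had a median of -0.05 that was above 0 under 3 of the alternatives, and DDX60, an antiviral helicase, was the 1 gene of 24 past 1.5-fold, with 4.63 CPM with VX-702 and 9.14 CPM with DMSO.

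Single genes of other lists stood past the fold. TGFBI, a matrix protein induced by TGF-β, had 29.5 CPM with VX-702, 18.5 CPM with DMSO and 25.2 CPM with DMSO and tamoxifen. The 680 RN7SL genes and pseudogenes, copies of the signal recognition particle RNA, together had 745 CPM with VX-702, 1065 CPM with DMSO and 763 CPM with DMSO and tamoxifen, and siCtrl, at 886 CPM, was the highest of the siRNA arm.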
